A study of Mus musculus with 16 samples.

Results

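The genes described here were the fatty acid oxidation genes Cpt1a, Acadm, Acadl, Hadha, Hadhb and Acaa2, the nuclear receptor gene Ppara and the kinase gene Pdk4. They were taken as a named list, and each symbol was matched to the Ensembl identifier used in the count tables, which gave 8 of 46078 genes. All 8 passed the filter on low counts, Pdk4 only through the untreated Apc mutant libraries. None of the 8 encodes an enzyme of ketone body synthesis, so genes of that pathway are described from a separate list.

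Long-chain fatty acids enter mitochondria as carnitine esters, which the carnitine palmitoyltransferase encoded by Cpt1a forms on the outer mitochondrial membrane. Inside, the acyl-CoA dehydrogenases (Acadl, Acadm), the trifunctional protein (Hadha, Hadhb) and the thiolase encoded by Acaa2 shorten the chain step by step and release acetyl-CoA. The receptor PPAR alpha (Ppara) is activated by fatty acids and switches on many of these genes in liver and intestine, and the kinase encoded by Pdk4 turns off pyruvate dehydrogenase and so keeps glucose carbon out of the same acetyl-CoA pool. In the intestine, fat-absorbing villus cells are rich in this machinery.

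RNA was sequenced from mouse intestinal organoids, epithelial structures grown from isolated crypts in a gel, in 16 libraries of 6 groups. In 12 libraries the organoids were grown in conditioned medium, which is medium taken from other organoid cultures and supplemented anew with R-spondin, Noggin and EGF. These were 3 libraries labelled Apc mutant and 3 labelled wild type on culture day 4, and 3 of each on day 2. The other 4 libraries were untreated, all on day 2, with 2 labelled Apc mutant and 2 labelled wild type. Per the labels' protocols, wild type organoids were Lgr5-EGFP-IRES-CreERT2 organoids carrying mCherry (LeGO-C2). Mutant organoids were Lgr5-EGFP-IRES-CreERT2;Apc fl/fl organoids recombined in culture with 4OH-tamoxifen and carrying Venus (LeGO-V2), and Villin-CreERT2 Apc fl/fl mice are also named as a source. In the first line the Cre recombinase is driven by Lgr5, a gene of crypt stem cells, and all groups were on a C57BL6 background. Separate animals or cultures are not stated for the replicates, so p-values measure the spread between these libraries, which may be technical.

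The libraries labelled Apc mutant in conditioned medium went against that label. Loss of Apc raises targets of Wnt signalling such as Notum and Nkd1. Notum was at 258 and 312 CPM (CPM are read counts scaled to a common library total) and Nkd1 at 440 and 532 CPM in the untreated Apc mutant libraries, against 0.218 to 0.327 and 1.31 to 1.80 CPM in untreated wild type. In the 6 conditioned medium libraries labelled Apc mutant they were at 0.293 to 0.753 and 1.17 to 2.17 CPM, and those labelled wild type, also 6, had 0.138 to 1.03 and 3.36 to 4.72 CPM. By their treatment label, all 12 received medium from Apc mutant cultures, and the titles could name either the organoids or the source of the medium, so the conditioned medium groups are called here only by how they are labelled. The design text of the series lists other groups than the labels, and the labels were followed. Reads over the whole Apc gene do not show its deleted part and came to 217 to 249 CPM in untreated Apc mutant and 69.3 to 76.1 CPM in untreated wild type libraries, and to 237 to 281 CPM in all 12 others.

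Each conditioned medium library held 17986815 to 29152692 reads in genes, and each untreated library 8325979 to 13027701. Histone genes, whose messages lack poly(A) tails, were at 3974 to 5706 CPM in conditioned medium and 50.5 to 53.1 CPM in untreated libraries, so the media are set side by side here with no test. In conditioned medium on day 4, wild type replicate 1 stood apart from its group. Its counts differed from those of the other 2 replicates by a chi-square of 39.9 and 42.2 per degree of freedom, against 3.30 to 6.08 in the other 12 within-group pairs, and results that rest on it are also given without it.

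Ppara and Cpt1a had differences between the labels that changed sign between comparisons, as did other members such as Acadl, which is not shown. Acadm holds the same nuclear receptor core as Cpt1a, and the sequence around the Hadha start overlaps that of Hadhb. Sequences around the start of these 4 members, Ppara, Cpt1a, Acadm and Hadha, are shown. Each runs 5′ to 3′ on the gene's own strand, from 250 bases before to 50 bases after the gene's start, from RefSeq on GRCm38.p6. Capitals mark matches, on either strand, to the motifs searched.
Ppara: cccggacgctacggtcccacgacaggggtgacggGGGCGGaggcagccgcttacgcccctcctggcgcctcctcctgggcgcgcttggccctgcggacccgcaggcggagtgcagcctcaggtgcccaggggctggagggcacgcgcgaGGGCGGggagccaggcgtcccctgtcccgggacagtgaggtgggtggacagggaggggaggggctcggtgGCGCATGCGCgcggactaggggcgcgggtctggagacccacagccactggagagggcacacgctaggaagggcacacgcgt
Cpt1a: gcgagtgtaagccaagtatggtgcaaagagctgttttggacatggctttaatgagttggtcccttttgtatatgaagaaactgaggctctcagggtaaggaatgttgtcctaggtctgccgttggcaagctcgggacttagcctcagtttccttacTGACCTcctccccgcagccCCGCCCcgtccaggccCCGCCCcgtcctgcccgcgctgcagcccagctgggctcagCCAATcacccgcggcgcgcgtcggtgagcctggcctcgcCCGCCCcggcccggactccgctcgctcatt
Acadm: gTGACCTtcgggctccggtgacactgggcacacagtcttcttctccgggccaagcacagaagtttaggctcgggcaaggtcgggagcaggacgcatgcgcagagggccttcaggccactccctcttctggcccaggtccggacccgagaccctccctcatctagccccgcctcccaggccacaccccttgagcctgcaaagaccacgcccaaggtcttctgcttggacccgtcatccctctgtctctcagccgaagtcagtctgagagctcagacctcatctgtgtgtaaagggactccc
Hadha: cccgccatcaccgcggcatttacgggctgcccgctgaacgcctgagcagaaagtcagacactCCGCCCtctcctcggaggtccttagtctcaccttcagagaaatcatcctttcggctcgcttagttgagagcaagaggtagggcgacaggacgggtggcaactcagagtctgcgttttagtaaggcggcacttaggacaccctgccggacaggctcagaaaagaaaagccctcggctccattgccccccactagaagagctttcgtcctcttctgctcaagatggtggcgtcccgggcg

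The windows lie at chr15:85735526-85735825 (plus strand) for Ppara, chr19:3323051-3323350 (plus) for Cpt1a, chr3:153944594-153944893 (minus) for Acadm and chr5:30154931-30155230 (minus) for Hadha. Such a sequence was available for 7 of the 8 genes. The direct repeat of AGGTCA with 1 base between the copies (DR1), which a PPAR bound with its partner RXR can recognise, was in none of the 7 and in 0.0396% of 32851 promoters of the same length. A single AGGTCA, held by 16.3% of promoters, starts 94 bases before the Cpt1a start and 249 bases before the Acadm start, in both on the opposite strand. The NRF1-type palindrome starts 31 bases before the Ppara start and is in 0.971% of promoters. Other capitals are GC boxes (GGGCGG, in 35.7% of promoters) and the CCAAT box of Cpt1a (CCAAT, in 37.4%). The HNF4-type motif CAAAGTCCA (0.475%) and the TCF-type motif ATCAAAG (3.73%) were in none of the 7. Hadha and Hadhb, which encode the 2 subunits of 1 complex, have RefSeq starts 273 bases apart and are read away from each other, and their windows share 228 bases.

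Per kilobase of exon, the order of the members was nearly the same in every group. The length was all annotated exon bases of a gene, which can exceed its longest coding transcript by unlike amounts. These lengths were 6595 against 2048 bases for Hadhb, 8730 against 4017 for Hadha and 7642 against 4317 for Cpt1a. They were 3913 against 2047 for Acadm and 1516 in both for Acaa2, so the order could differ with transcript length. Acaa2 led, with 43.3 ± 0.52 (SD, n = 2) CPM per kb in untreated Apc mutant libraries, against 150 ± 3.6 (n = 2) in untreated wild type, and 119 to 165 in the means of the conditioned medium groups. Acadl came second with group means of 30.5 in untreated Apc mutant and 80.5 CPM per kb in untreated wild type, and 82.5 or more in conditioned medium. Hadha came next with 19.1 to 43.4. Acadm (14.97 to 30.2) and Cpt1a (8.74 to 28.9) followed. Cpt1a stood above Acadm only in the day 2 conditioned medium libraries labelled Apc mutant, with 25.7 ± 1.0 against 24.3 ± 0.37 (SD, n = 3), and the 2 genes overlapped on day 4, with 28.9 ± 0.60 and 29.3 ± 0.45. Ppara (0.389 to 11.98) and Hadhb (6.81 to 10.1) were low on this scale, and Pdk4 did not pass 0.50 CPM per kb in any group mean. Hadhb may be understated: 69.7% of its transcript has a copy at 97% identity or more in the pseudogenes Gm13910 and Gm9108, and reads with several alignments were counted for no gene. Of the Hadha transcript 75 bases (1.87%) match Garem2, and of the Pdk4 transcript 122 bases (3.50%) match other genes.

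**Figure D1:**
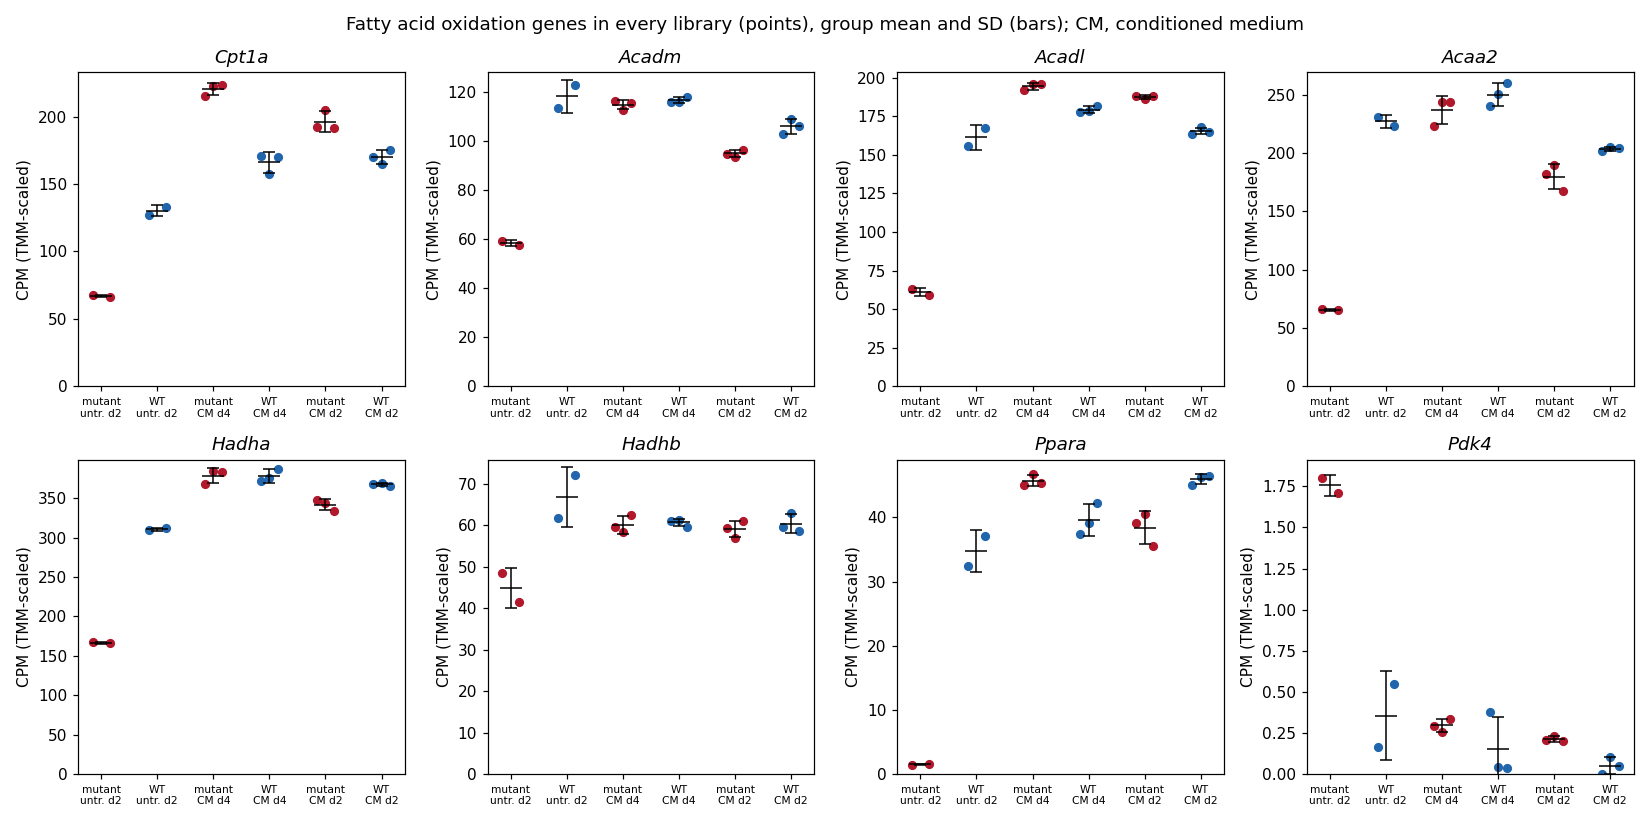
Level of each of the 8 genes in every library, in CPM on TMM-scaled library sizes. Red points are libraries labelled Apc mutant and blue points wild type, with the group mean and SD as bars; the untreated Apc mutant libraries are lowest for 7 genes and highest for Pdk4.

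In untreated organoids on day 2, the 6 oxidation enzymes and Ppara were all lower in Apc mutant than in wild type libraries, by 1.48-fold for Hadhb to 23.1-fold for Ppara. Pdk4 had more reads in both Apc mutant libraries. All tests are quasi-likelihood tests in edgeR, with p-values adjusted by the Benjamini-Hochberg method across 16510 genes and a threshold of 0.05. In this comparison 62.5% of all genes were called, 30.1% lower and 32.4% higher, so a called gene is common. The median log2 fold change of the 7 members other than Pdk4 was -1.01, against 0 over all genes.

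Cpt1a, the entry step, was at 67.3 and 66.2 CPM in Apc mutant and 127 and 133 CPM in wild type libraries. This was a log2 fold change of -0.96 ± 0.06 (SE; adjusted p = 2.2e-12). Genes on its chromosome, 19, had a median of 0.53 in this comparison, so Cpt1a lay further below its chromosome than below all genes. Acadm, which acts on medium-chain substrates, was at 59.4 and 57.7 CPM in Apc mutant and 114 and 123 CPM in wild type (-1.01 ± 0.06, adjusted p = 3.3e-13). Acadl, which acts on longer chains, was at 62.8 and 59.4 CPM in Apc mutant and 156 and 167 CPM in wild type (-1.40 ± 0.06, adjusted p = 2.1e-16). The long-chain enzyme thus had the larger change of the pair. The ratio of Acadl to Acadm counts was 1.04 ± 0.020 in Apc mutant and 1.37 ± 0.0084 in wild type (SD, n = 2 each, not tested).

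The trifunctional protein's subunits, which carry the hydratase, dehydrogenase and thiolase steps for long chains, were lowered least. Hadha was at 167 and 166 CPM in Apc mutant and 309.6 and 312 CPM in wild type (-0.90 ± 0.06, adjusted p = 3.8e-13). Hadhb was at 48.4 and 41.5 CPM in Apc mutant and 61.8 and 72.0 CPM in wild type (-0.57 ± 0.08, adjusted p = 1.2e-06). Its pseudogene Gm13910, which shares sequence with it, averaged 14.6 ± 0.83 CPM in Apc mutant and 24.8 ± 1.5 CPM in wild type (SD, n = 2 each). Acaa2, the thiolase of the shorter chains, had the largest change of the 6 member enzymes, with 66.2 and 65.1 CPM in Apc mutant and 231 and 223 CPM in wild type (-1.79 ± 0.07, adjusted p = 3.2e-17). The 2 groups did not overlap for any of the 6 enzymes, nor for 75.7% of all genes.

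Ppara was barely expressed in Apc mutant organoids, at 1.45 and 1.53 CPM, against 32.4 and 37.1 CPM in wild type (-4.53 ± 0.15, adjusted p = 7e-19). The groups lay far apart. Pdk4, which PPAR alpha induces in liver and muscle, went the other way: 26 and 28 reads (1.80 and 1.71 CPM) in Apc mutant and 2 and 5 reads (0.163 and 0.545 CPM) in wild type. Its fitted log2 fold change was 2.39 ± 0.62, and 1.67 without replicate 4 of wild type. Pdk4 passed the filter on low counts only through the Apc mutant group, where it is high, so these values are a description and no test is given for it here.

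**Figure D2:**
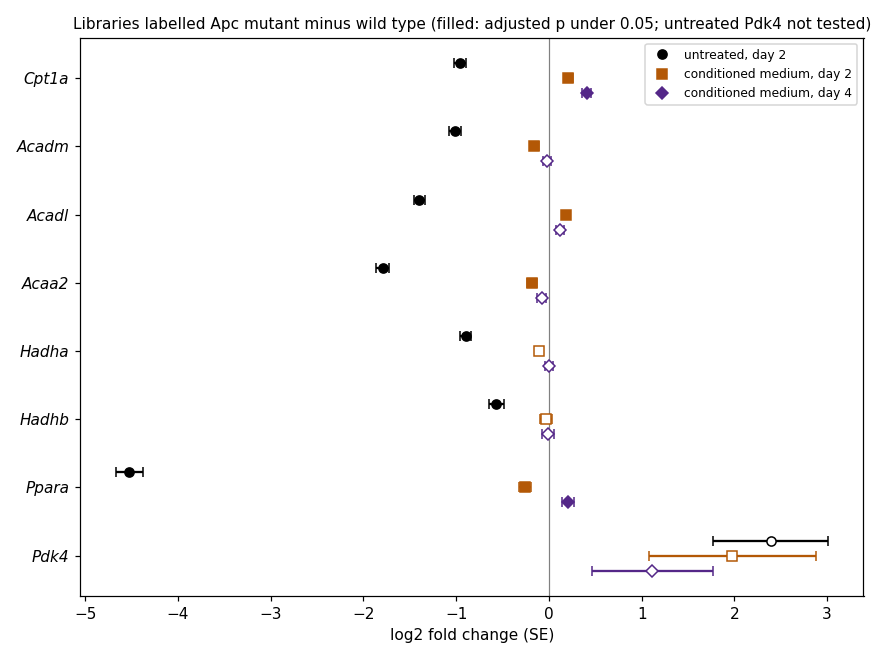
Log2 fold change (x axis, with SE) of each gene between libraries labelled Apc mutant and wild type, for untreated day 2 (circles), conditioned medium day 2 (squares) and day 4 (diamonds). Filled symbols passed an adjusted p of 0.05, with untreated Pdk4 drawn open because it was not tested; the untreated changes reach -4.53 for Ppara, and those in conditioned medium stay within 0.41 of 0 except for Pdk4.

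Other genes of the pathway in untreated organoids were described from lists, counted here and for the other comparisons without the 8 members. Among 11 further mitochondrial beta-oxidation enzymes, 10 were lower and none was higher, with a median of -1.06. The largest change was in Hadh, the short-chain hydroxyacyl-CoA dehydrogenase, at 99.1 and 109 CPM in Apc mutant and 418 and 389 CPM in wild type (-1.95 ± 0.07, adjusted p = 1.6e-18). Of 10 further carnitine shuttle and activation genes tested, 6 were lower and 2 higher, with a median of -0.27. Cpt2, which turns the carnitine esters back into acyl-CoA, was lower by a log2 change of -0.61 ± 0.07 (adjusted p = 3.3e-08), and Acsl6 had no reads in either Apc mutant library and 2.53 and 2.29 CPM in wild type. Peroxisomal oxidation genes were lower in 8 of 9, including Ehhadh, the peroxisomal bifunctional enzyme (-5.16 ± 0.09, adjusted p = 2.6e-24), at 4.09 and 3.67 CPM in Apc mutant and 136 and 141 CPM in wild type. Mitochondrial content genes were lower in 7 of 8, with a median of -0.77.

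Of the ketone body genes, Bdh1, which interconverts the ketone bodies, was lower, at 34.4 and 36.0 CPM in Apc mutant and 248 and 227 CPM in wild type (-2.75 ± 0.08, adjusted p = 5.6e-20). Acat1, the thiolase that joins or splits acetyl-CoA units, was lower by a log2 change of -1.36 ± 0.07 (adjusted p = 2.3e-14).

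Of 10 PPAR receptors and partners tested beside Ppara, 7 were lower and 1 higher, with a median of -0.90. Nr1h3, the liver X receptor alpha gene, was lower by a log2 change of -3.93 ± 0.17 (adjusted p = 4e-16). Ppard, the receptor most linked to intestinal stem cells, was at 44.9 and 62.7 CPM in Apc mutant and 60.1 and 44.7 CPM in wild type, groups that overlap (0.03 ± 0.13, adjusted p = 0.87). Ppargc1a, a coactivator of mitochondrial genes, was the 1 that was higher (0.56 ± 0.13, adjusted p = 0.00075). PPAR targets outside oxidation were lower in 11 of 14, with a median of -3.94. Fabp1, the fatty acid binding protein of enterocytes and hepatocytes, was at 0.762 and 1.04 CPM in Apc mutant and 1447 and 1506 CPM in wild type. Among 10 genes of the pyruvate dehydrogenase complex, its other kinases and its phosphatases, 3 were higher, Pdk1 (0.35 ± 0.10, adjusted p = 0.0029) among them, and 6 were lower, with Pdk2 at -0.54 ± 0.08 (adjusted p = 5.6e-06). Of 4 malonyl-CoA genes, which control Cpt1a through its inhibitor, 3 were lower.

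**Figure D3:**
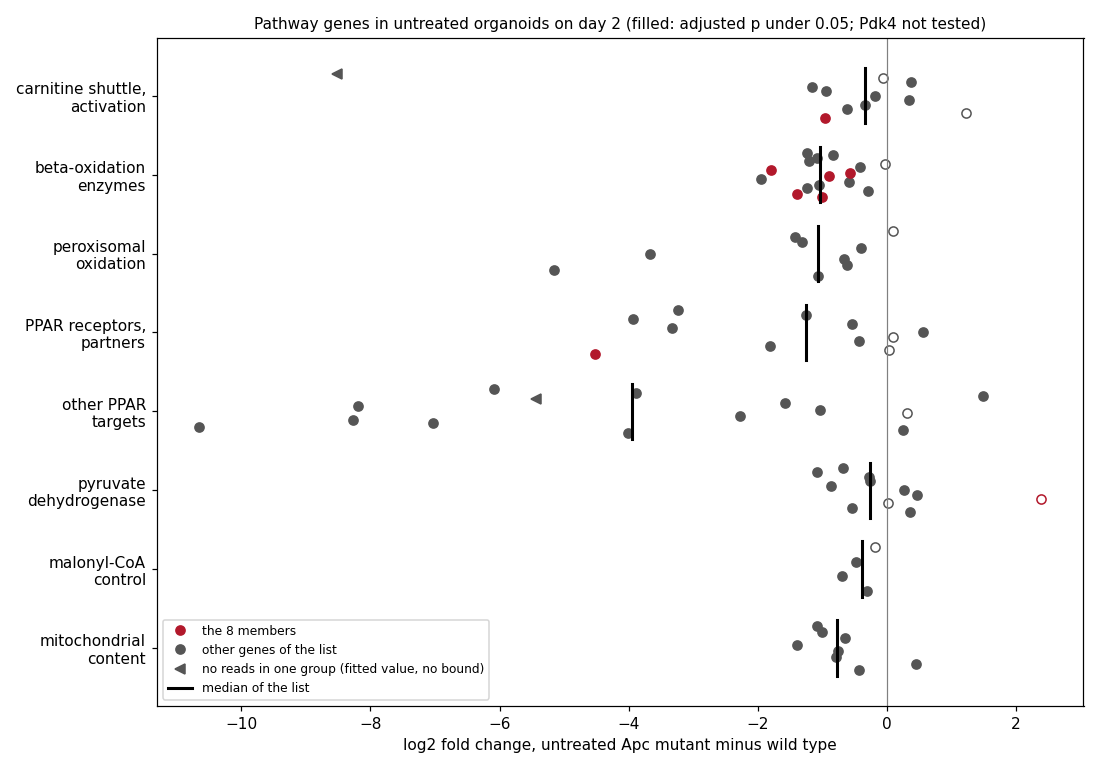
Log2 fold change of untreated Apc mutant over wild type libraries for each gene of 8 lists, with the 8 members in red and list medians, members included, as bars. Triangles had no reads in the Apc mutant libraries and their fitted values are no bound; 15 of 16 beta-oxidation enzymes, 5 of them members, were called lower, while Pdk4 (2.39, open because not tested) lies above 0.

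Cell type markers moved with this comparison. The 8 absorptive enterocyte markers summed to 305 to 309 CPM in Apc mutant and 7553 to 7610 CPM in wild type libraries. Of these, 7 were lower, with Krt20 without reads in Apc mutant. The 1 that was higher, Anpep, made up nearly all of the Apc mutant sum, at 297 and 295 CPM. All 5 goblet, all 5 enteroendocrine, all 4 tuft markers tested and 4 of 5 Paneth markers were lower. Of 5 crypt base stem cell markers 4 were higher, although the list sum was 1832 to 1918 CPM in Apc mutant and 2632 to 2832 CPM in wild type. The 1 that was lower, Olfm4, was at 0.208 and 0.306 CPM in Apc mutant and 1891 and 2070 CPM in wild type. Hepatocyte markers, several of which enterocytes also express, were lower in all 4 tested, and endothelial and neural markers summed to 3.24 to 3.33 CPM in Apc mutant and 2.07 to 2.61 CPM in wild type. Fibroblast and stromal markers summed to 271 to 287 CPM in Apc mutant and 5.02 to 6.21 CPM in wild type, nearly all of it Vim, with Col1a2 and Col3a1 without reads in both. Immune markers summed to 5.89 to 7.77 CPM in Apc mutant and 3.43 to 3.60 CPM in wild type, with Ptprc, Cd3e and Adgre1 without reads in Apc mutant, and adipocyte markers had no reads. In bulk samples fewer cells of a type and less RNA per cell cannot be told apart, and the part of the enterocyte markers in the lower oxidation genes was not tested.

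In conditioned medium on day 2, the members moved in both directions, by at most 1.20-fold in those called. Cpt1a and Acadl were higher in libraries labelled Apc mutant, and Acadm, Acaa2 and Ppara were lower. The test called 16.7% of all genes here (8.54% higher, 8.15% lower). The median of all 8 members was -0.07 (-0.10 without Pdk4), against 0 over all genes. Library ranges were apart for 7 of the 8 members and for 34.5% of all genes. The 7 include Pdk4, with 4 reads in each library labelled Apc mutant and 0 to 2 in wild type.

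Cpt1a was at 192, 205 and 191 CPM in libraries labelled Apc mutant and 170.3, 165 and 175 CPM in those labelled wild type (0.21 ± 0.05, adjusted p = 0.0044). Acadl was at 188, 186 and 188 CPM in the libraries labelled Apc mutant and 164, 168 and 165 CPM in wild type (0.18 ± 0.04, adjusted p = 0.0061). Every library labelled Apc mutant lay above every wild type library for both genes. Acadm ran against Acadl, at 94.6, 93.7 and 96.5 CPM in libraries labelled Apc mutant and 103, 109 and 106 CPM in wild type (-0.16 ± 0.05, adjusted p = 0.023). The ratio of Acadl to Acadm counts was therefore 1.98 ± 0.024 in libraries labelled Apc mutant and 1.56 ± 0.025 in wild type (SD, n = 3 each; ranges apart, not tested).

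Acaa2 was at 182, 189.7 and 168 CPM in libraries labelled Apc mutant and 201, 205 and 204 CPM in wild type (-0.18 ± 0.05, adjusted p = 0.021). Ppara was at 39.1, 40.5 and 35.6 CPM in libraries labelled Apc mutant and 45.0, 46.3 and 46.5 CPM in wild type (-0.26 ± 0.06, adjusted p = 0.006). Replicate 3 labelled Apc mutant was the lowest of its group for both. Hadha was at 348, 344 and 334 CPM in libraries labelled Apc mutant and 368, 369 and 365 CPM in wild type, ranges that do not overlap but a difference that did not pass (-0.10 ± 0.04, adjusted p = 0.11). Hadhb overlapped (-0.03 ± 0.06, adjusted p = 0.79), and Pdk4 had 4 reads in each library labelled Apc mutant and 0 to 2 in wild type (adjusted p = 0.14). Without replicate 3 labelled Apc mutant no member was called lower, with values of -0.16 for Acadm, -0.12 for Acaa2 and -0.20 for Ppara (adjusted p = 0.059 to 0.19). Without wild type replicate 2 or 3 only Ppara was called lower, and Acadm lost its call in 5 of the 6 leave-outs (adjusted p = 0.059 to 0.095).

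Around these members on day 2, 3 of 10 other carnitine shuttle and activation genes were higher and none lower, with Acsl6 at 0.84 ± 0.22 and Slc22a5, the plasma membrane carnitine transporter, at 0.37 ± 0.08 (adjusted p = 0.0095 and 0.0034). Of the 11 other beta-oxidation enzymes none was higher and 2 were lower, with Hadh at 354, 375 and 356 CPM in libraries labelled Apc mutant and 468, 486 and 480 CPM in wild type (-0.40 ± 0.05, adjusted p = 2.6e-06). No PPAR receptor or partner was higher, and 5 of the 10 beside Ppara were lower, with Nr1h3 at -0.73 ± 0.09 (adjusted p = 1.6e-06). Of 14 PPAR targets outside oxidation, 4 were higher and 3 lower, with a median of 0.04. Among the higher was Vnn1, a pantetheinase that PPAR alpha induces in liver. It was at 23.0, 31.8 and 28.4 CPM in libraries labelled Apc mutant and 7.59, 6.18 and 5.42 CPM in wild type (2.11 ± 0.15, adjusted p = 4.5e-10). Pdk1 and Pdk2, relatives of Pdk4, were lower (-0.48 ± 0.07 and -0.36 ± 0.06, adjusted p = 1.1e-05 and 0.00014). Acacb, which makes malonyl-CoA at mitochondria, was higher (1.12 ± 0.16, adjusted p = 2.5e-05).

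Markers of several cell types moved with the label on day 2. Goblet cell markers were higher in 5 of 5, with a median of 1.08 and sums of 4880 to 5770 CPM in libraries labelled Apc mutant and 3708 to 4156 CPM in wild type. Paneth cell markers were higher in 4 of 5, with a median of 0.65 and sums of 5535 to 5997 CPM in libraries labelled Apc mutant and 4133 to 4291 CPM in wild type. Enteroendocrine markers were higher in 4 of 5, with a median of 0.67 and sums of 772 to 883 CPM in libraries labelled Apc mutant and 468 to 489.6 CPM in wild type. Stem cell markers were lower in 4 of 5, at 2661 to 2846 CPM in libraries labelled Apc mutant and 3487 to 3721 CPM in wild type. Enterocyte sums overlapped, at 6806 to 7138 CPM in libraries labelled Apc mutant and 6748 to 7246 CPM in wild type, with 3 of 8 markers higher and 1 lower. Their part in the members' day 2 values was not tested.

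On day 4 in conditioned medium, Cpt1a was 1.33-fold higher in libraries labelled Apc mutant, and Ppara was the other member called. Cpt1a was at 215, 223 and 224 CPM in libraries labelled Apc mutant and 171, 157 and 170.0 CPM in wild type (0.41 ± 0.05, adjusted p = 1.2e-06; 0.43 without wild type replicate 1). Ppara was now the higher in libraries labelled Apc mutant, at 45.1, 46.7 and 45.3 CPM, against 37.4, 39.2 and 42.2 CPM in wild type (0.20 ± 0.06, adjusted p = 0.026). These 2 were the members called, against 15.6% of all genes (7.83% higher, 7.80% lower). The median of all 8 members was 0.06, and 0.00099 without Pdk4. Ppara lost its call in 5 of the 6 leave-outs, all but wild type replicate 3, at 0.17 to 0.21 (adjusted p = 0.056 to 0.14).

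Acadl remained above, at 192, 196 and 196 CPM in libraries labelled Apc mutant and 178, 178 and 182 CPM in wild type, with ranges apart but no call (0.12 ± 0.04, adjusted p = 0.078). Fitting only the groups compared, keeping only nuclear protein-coding genes or using DESeq2 brought it past the threshold (adjusted p = 0.048, 0.036 and 0.016). Acadm was at 116, 113 and 115 CPM in libraries labelled Apc mutant and 116, 116 and 118 CPM in wild type (-0.02 ± 0.05, adjusted p = 0.81). Hadha (0.00, SE 0.04, adjusted p = 1), Hadhb (-0.01 ± 0.06, adjusted p = 0.94) and Acaa2 (-0.08 ± 0.05, adjusted p = 0.34) overlapped between the labels. Library ranges were apart for 3 of the 8 members and 34.9% of all genes. Pdk4 had 6, 5 and 8 reads in libraries labelled Apc mutant and 7, 1 and 1 in wild type (1.11 ± 0.65, adjusted p = 0.28), and without wild type replicate 1 it was at 2.70 (adjusted p = 0.025).

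Of the pathway lists, the carnitine shuttle had the most genes higher on day 4, 5 of 10 beside Cpt1a, against 1 lower, with Cpt2 at 84.6, 94.2 and 86.3 CPM in libraries labelled Apc mutant and 67.8, 71.4 and 75.0 CPM in wild type (0.30 ± 0.05, adjusted p = 0.00024). Of the 11 other beta-oxidation enzymes none was higher and 2 were lower. Of the 10 PPAR receptors and partners beside Ppara 2 were higher and 2 lower, with Ppard at 0.28 ± 0.10 (adjusted p = 0.046). PPAR targets outside oxidation were higher in 4 and lower in 3 of 14, with a median of -0.18. Vnn1 was again higher (2.14 ± 0.15, adjusted p = 2.8e-10), and Pdk1 and Pdk2 again lower (-0.30 ± 0.07 and -0.19 ± 0.06).

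Cell type markers moved with the label on day 4 too. All 5 stem cell markers were lower, with list sums of 1898 to 2084 CPM in libraries labelled Apc mutant and 3662 to 3798 CPM in wild type, and enterocyte sums were 8562 to 9145 CPM in libraries labelled Apc mutant and 9262 to 10237 CPM in wild type, with 2 of 8 markers higher and 2 lower. Goblet cell markers were higher in 4 of 5 with a median of 0.33, although their sums overlapped, at 6173 to 6266 CPM in libraries labelled Apc mutant and 5305 to 6673 CPM in wild type. Enteroendocrine markers were higher in 4 of 5 (median 0.52), at 1020 to 1111 CPM in libraries labelled Apc mutant and 702 to 832 CPM in wild type. Tuft cell markers were higher in 3 of 4 tested (median 0.42), at 47.5 to 54.8 CPM in libraries labelled Apc mutant and 33.9 to 41.7 CPM in wild type. Of the Paneth cell markers 2 of 5 were higher and 1 was lower. The part of these cell markers in the day 4 values was not tested.

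On day 4, relative to day 2, Acaa2 and Acadm rose in conditioned medium under both labels. The titles of the day 4 and day 2 libraries in conditioned medium differ in style. Day cannot be told apart from any other difference between these 2 sets of libraries. Acaa2 rose 1.32-fold in libraries labelled Apc mutant (0.40 ± 0.05, adjusted p = 4.7e-06) and 1.23-fold in wild type (0.30 ± 0.05, adjusted p = 0.00019). Its day 4 values were 223, 244 and 244 CPM in libraries labelled Apc mutant, against 182, 189.7 and 168 CPM on day 2, and 240.4, 250.3 and 259.7 CPM in wild type on day 4, against 201 to 205 CPM on day 2. Acadm rose by 0.27 ± 0.05 in libraries labelled Apc mutant (adjusted p = 0.00013) and by 0.14 ± 0.05 in wild type (adjusted p = 0.033). The wild type rise of Acadm lost its call without wild type day 2 replicate 1 or 3 or any of the 3 day 4 replicates (adjusted p = 0.058 to 0.13) and with no filter on low counts (adjusted p = 0.099).

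In libraries labelled Apc mutant 5 members rose and none fell, against 12.2% of all genes higher and 11.7% lower (23.9% called). The median of all 8 members was 0.21, and 0.17 without Pdk4. Beside Acaa2 and Acadm these were Ppara (0.25 ± 0.06, adjusted p = 0.0048), Cpt1a (0.17 ± 0.05, adjusted p = 0.012) and Hadha (0.15 ± 0.04, adjusted p = 0.016). Cpt1a and Hadha each lost their call in 3 leave-outs, both (leaving 3 members called) without day 2 replicate 3 (0.15 and 0.13) or day 4 replicate 3 (0.16 and 0.14), Cpt1a also without day 2 replicate 1 (0.15) and Hadha without day 4 replicate 2 (0.14). In wild type 2 members rose and Ppara fell, by 0.21 on the log2 scale (SE 0.06, adjusted p = 0.016). Of all genes 24.1% were called (12.5% higher, 11.6% lower). The members' median was 0.08, and 0.04 without Pdk4. Without wild type day 4 replicate 1, the library that stood apart, the fall of Ppara was -0.17 and not called (adjusted p = 0.093), and it also missed the threshold without day 2 replicate 3 or day 4 replicate 2 (adjusted p = 0.052 and 0.051). Cpt1a was not called in wild type (-0.03 ± 0.05, adjusted p = 0.67). Day 4 and day 2 ranges were apart for 7 of 8 members in libraries labelled Apc mutant and 5 of 8 in wild type, against 39.7% and 41.3% of all genes. The 7 include Pdk4, with 6, 5 and 8 reads on day 4 and 4 in each library on day 2.

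**Figure D4:**
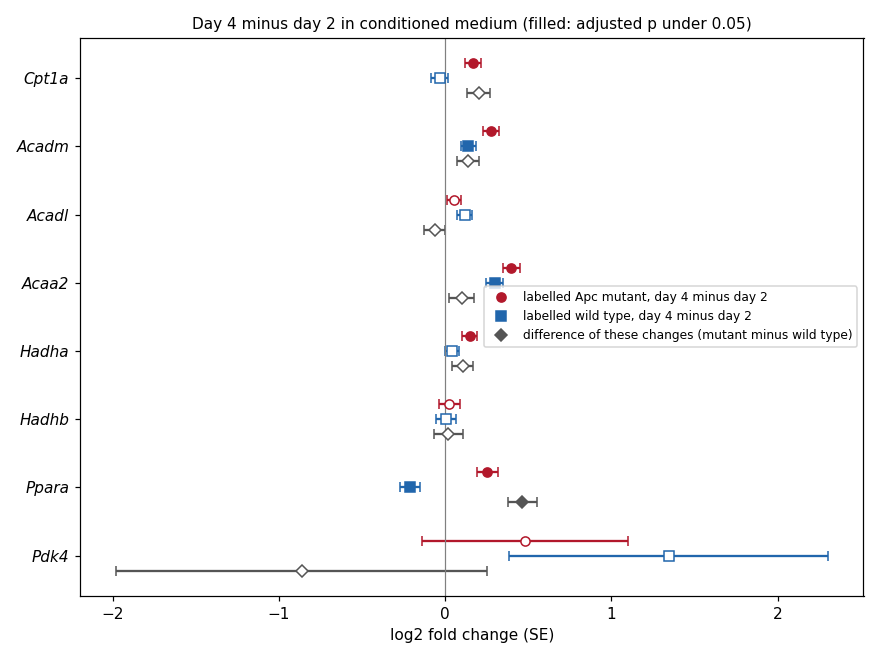
Log2 fold change (with SE) between day 4 and day 2 in conditioned medium for libraries labelled Apc mutant (circles) and wild type (squares), and the difference between those changes (diamonds). Filled symbols passed an adjusted p of 0.05; Ppara, at 0.25 and -0.21 with a difference of 0.46, is the 1 gene filled in all 3.

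Ppara was the member whose change over time differed between the labels. The difference of the 2 day effects was 0.46 ± 0.09 (adjusted p = 0.0034; 0.43, adjusted p = 0.019 without wild type day 4 replicate 1), and 2.13% of all genes passed this test (0.884% higher, 1.24% lower). Cpt1a rose under 1 label only by its own test, but the difference itself did not pass (0.20 ± 0.07, adjusted p = 0.16), and neither did that of Acadm (0.14 ± 0.07, adjusted p = 0.41), Acadl (-0.06 ± 0.06, adjusted p = 0.76), Acaa2 (0.10 ± 0.07, adjusted p = 0.66) or Hadha (0.10 ± 0.06, adjusted p = 0.53). Nr1h3 differed in the same direction as Ppara (0.49 ± 0.12, adjusted p = 0.028), as did Cpt2 (0.30 ± 0.08, adjusted p = 0.036) and the mitochondrial carrier gene Ucp2 (0.37 ± 0.09, adjusted p = 0.022). All 5 Paneth markers differed the opposite way, with list sums of 4960 to 5294 CPM on day 4 and 5535 to 5997 CPM on day 2 in libraries labelled Apc mutant, and 5283 to 6143 CPM on day 4 and 4133 to 4291 CPM on day 2 in wild type. Their part in the Ppara values was not tested.

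Other pathway lists over time were counted in the same way. Peroxisomal oxidation genes rose in 7 of 9 under each label and none fell, and PPAR targets outside oxidation rose in 7 of 14 under each label, with Creb3l3, a transcription factor of fasting metabolism, at 0.68 ± 0.07 in libraries labelled Apc mutant and 0.62 ± 0.07 in wild type (adjusted p = 5.7e-08 and 3.4e-07). Of the 11 beta-oxidation enzymes that are not members, 4 rose in libraries labelled Apc mutant and 1 in wild type, and none fell under either label. Of the 10 PPAR receptors and partners beside Ppara, 4 rose in libraries labelled Apc mutant, and in wild type 1 rose and 1 fell. Stem cell markers fell in 4 of 5 in libraries labelled Apc mutant and 1 of 5 in wild type, enterocyte markers rose in 2 of 8 and fell in 1 in libraries labelled Apc mutant and rose in 5 and fell in 1 in wild type, and enteroendocrine markers rose in 3 of 5 under each label. The part of these cell markers in the members' changes over time was not tested. The comparisons share libraries, so these counts are not independent of each other.

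**Figure D5:**
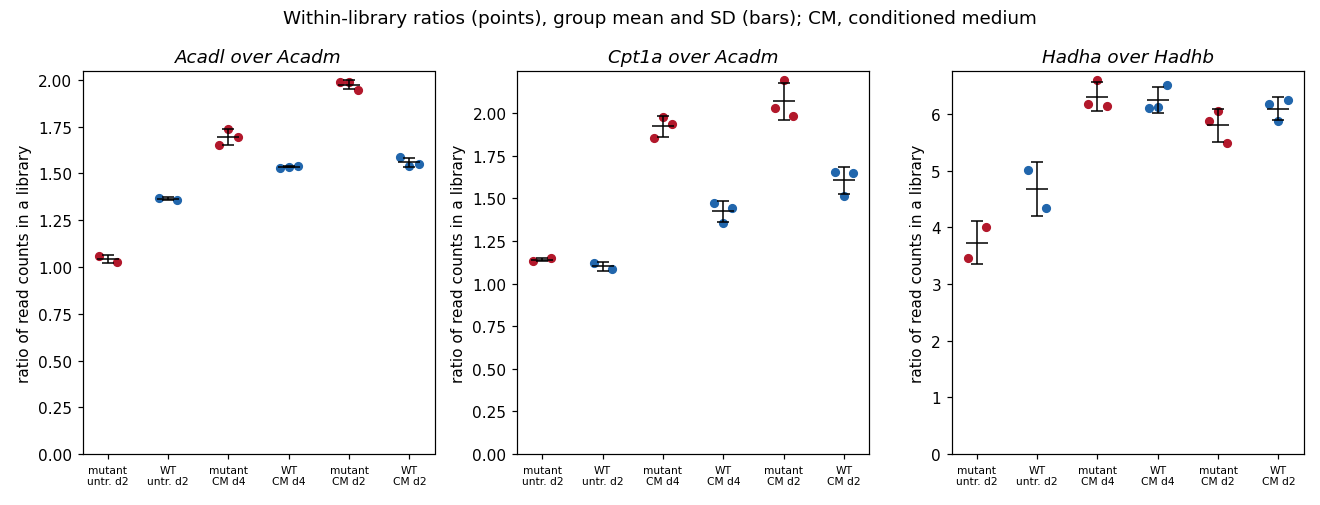
Ratios of read counts of pairs of genes within each library, with group mean and SD as bars; red is labelled Apc mutant and blue wild type. Acadl over Acadm lies at 1.69 ± 0.043 on day 4 and 1.98 ± 0.024 on day 2 in conditioned medium libraries labelled Apc mutant, and at 1.54 ± 0.0042 on day 4 and 1.56 ± 0.025 on day 2 in wild type.

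Ratios within a library do not depend on library scaling. The ratio of Cpt1a to Acadm counts in conditioned medium was 1.92 ± 0.062 on day 4 and 2.07 ± 0.11 on day 2 in libraries labelled Apc mutant, and 1.42 ± 0.061 on day 4 and 1.61 ± 0.080 on day 2 in wild type (SD, n = 3 each), with ranges apart on both days. In untreated libraries it was 1.14 ± 0.010 in Apc mutant and 1.10 ± 0.026 in wild type (SD, n = 2 each). Hadha over Hadhb was 6.30 ± 0.25 on day 4 and 5.80 ± 0.29 on day 2 in libraries labelled Apc mutant, and 6.24 ± 0.23 on day 4 and 6.09 ± 0.20 on day 2 in wild type, with the labels overlapping on both days. The gene whose log2 levels followed each member most closely was sought over the 12 conditioned medium libraries. It was Cbr3 for Cpt1a (Pearson r = 0.98), Ank3 for Acadl (0.98), Mocs1 for Acaa2 (0.99) and Ckmt1 for Hadha (0.98). For Acadm it was Cyp2c68 (0.98), of a family with near-identical copies, and for Ppara Atg4d (0.88). For Hadhb it was Erap1 (0.88), and for Pdk4, with 0 to 8 reads a library, Nebl (0.89). These points share 4 groups and their libraries' depths, so the values only describe the pattern.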

How the data were processed

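The authors deposited 1 table of whole-number read counts per library, for 46078 Ensembl genes and 5 summary lines. The submitters' processing notes name GRCm38, HTSeq 0.6.1p1, HISAT2 2.1.0 and Trimmomatic 0.36. The strand setting and annotation release were not given there, so reads from genes that overlap in antisense cannot be told apart. Per the labels' protocols, ribosomal RNA was depleted. Symbols came from GENCODE M21 (98.0% of identifiers matched).

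Summary lines stayed out of library sizes. Reads outside genes made up 14.4 to 19.2% of reads in conditioned medium and 4.78 to 7.32% in untreated libraries, and reads with several alignments 26.5 to 33.3% and 36.5 to 38.9%.

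The 6 groups of 16 libraries were fitted together with edgeR's quasi-likelihood test (edgeR 4.0.16, limma 3.58.1, R 4.3.3), TMM scaling (factors 0.898 to 1.26) and filterByExpr, which kept 16510 genes. There were 10 residual degrees of freedom, and the common biological coefficient of variation was 5.96%. P-values were adjusted over all genes tested, with calls under 0.05. Levels are CPM on TMM-scaled library sizes, and SE is the log2 fold change divided by the root of F. The fit was also run on simulated counts, in which few genes differed between groups. That setting is unlike the untreated comparison, where 62.5% of genes were called, so it cannot vouch for that comparison. Replicate numbers did not pair the conditioned medium libraries (deviations of same-numbered libraries correlated at -0.082 to 0.068). Alternatives were RLE scaling, DESeq2 1.42.0, no filter, protein-coding genes only, only the groups compared, a replicate block and leaving out each library.

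The members, lists and tests were chosen with earlier results of these data known. The 8 members were named in every comparison. From each pathway list the 2 called genes with the largest change could be named, plus Ppard, Ppargc1a, Cpt2, Pdk1 and Pdk2, and for each member the gene with the most similar pattern. Copies were sought by aligning transcripts at 97% identity or more over at least 50 bases. Some genes and results are not reported here.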

Additional observations from a re-analysis of the deposited data

Results flagged for a closer look

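The change of Ppara between day 4 and day 2 in conditioned medium differed between the labels by 0.46 ± 0.09 on the log2 scale (SE, adjusted p = 0.0034 by edgeR's quasi-likelihood test of the interaction). Levels were 45.1, 46.7 and 45.3 CPM on day 4, against 39.1, 40.5 and 35.6 CPM on day 2, in the 3 libraries each labelled Apc mutant. In those labelled wild type they were 37.4, 39.2 and 42.2 CPM on day 4, against 45.0, 46.3 and 46.5 CPM on day 2. Every day 4 library lay above every day 2 library under the Apc mutant label and below every day 2 library under the wild type label. Ranges of the days were apart for 39.7% of all genes under the Apc mutant label and 41.3% under wild type. The interaction test called 2.13% of all genes. Without wild type day 4 replicate 1, which stood apart from its group, the fall under the wild type label was not called.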

How the results depend on the processing

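There were 611 values of single members under the alternatives. Of these, 552 kept their direction and their side of the threshold, 32 lost a call, 7 gained one and 20 changed sign. Among the 286 values of members under the threshold none changed sign. These counts include untreated Pdk4, which the filter on low counts selected and which is not counted as a result. Sign changes outside the leave-outs were all in members at about 0: in conditioned medium on day 4 Hadhb was at 0.00087 with RLE scaling and 0.00093 with DESeq2, and Hadha at -0.00023 without the filter and -0.00070 with only the groups compared, and over time in wild type Hadhb was at -0.0024 with protein-coding genes only. The cause was not tested. Members called higher over time in wild type came to 1 without the filter and 1 under the replicate block, against 2. Fitting only the groups compared called 568 genes for the label by day difference, against 351, and could give no value for Pdk4 in conditioned medium, which then failed the filter. The replicate block, with Acadm over time in wild type at 0.14 (adjusted p = 0.056), changed no other member's call; the numbers share only a label, as same-numbered libraries did not deviate together. In untreated libraries same-numbered libraries correlated at -0.29, and the block with crossed numbers, added after seeing the data, called 10563 genes, against 10321.

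Leaving out each library in turn called 9232 to 9690 genes in the untreated comparison, 1725 to 2484 and 1901 to 2024 between the labels on day 2 and day 4 in conditioned medium, 3110 to 3429 and 2833 to 3386 over time in libraries labelled Apc mutant and wild type, and 237 to 325 for the difference of these. In the same order members called higher numbered 0 to 1 (Pdk4, which the filter on low counts selected and which is not counted as a result), 2 to 2, 1 to 2, 3 to 5, 1 to 2 and 1 to 1, and members called lower 7 to 7, 0 to 3, 0 to 0, 0 to 0, 0 to 1 and 0 to 0. Members that changed sign in a leave-out ranged from -0.0114 to 0.0214 (Hadha) and -0.0406 to 0.00977 (Hadhb) between the labels on day 4, -0.00355 to 0.0471 (Hadhb) over time in libraries labelled Apc mutant, -0.0562 to 0.00381 (Cpt1a), -0.0148 to 0.0353 (Hadhb) and -0.237 to 2.20 (Pdk4) over time in wild type, and -0.00965 to 0.0407 (Hadhb) and -1.73 to 0.717 (Pdk4) for the difference. Pdk4, with 0 to 28 reads a library, is limited by depth.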
